A study of Rattus norvegicus with 2 samples.

Results

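Cytosolic ribosomal protein genes were followed in rat liver on 2 Affymetrix expression arrays, 1 from rats given olive oil and 1 from fasted rats. The genes were chosen by name, as those whose symbol has the form Rpl or Rps with a number, Rplp with a number or Rpsa, without the S6 kinase genes (Rps6k), and only where a probe set was listed with 1 gene. This gave 50 of the 14217 genes represented on the array, 34 of the large and 16 of the small subunit. The olive oil array was made from livers of male Wistar rats, an outbred strain, 2 months old and of 250 to 300 g, which were fasted for 18 h, given 5 ml of olive oil (16 ml per kg) and killed 4 h later. The fasted array was made from livers of rats of the same sex, strain, age and weight, fasted for 18 h and given no oil. Whether the fasted rats were kept without food for the further 4 h, and how many livers contributed RNA to an array, the labels do not say. With 1 array per group there is no replicate check, so that no test, standard deviation over animals or p-value is given, and every difference below is one between 2 arrays.

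The cytosolic ribosome joins amino acids into protein in the order read from mRNA. Its small subunit binds the mRNA and checks the tRNAs, and its large subunit forms the peptide bond and holds the tunnel through which the new chain leaves. Cells make the ribosomal proteins in matched amounts. Their mRNAs share a pyrimidine-rich start, the 5' terminal oligopyrimidine (TOP) tract, through which nutrient signalling by mTOR controls how much of them is translated. In liver, which exports most plasma proteins, translation and the ribosome content are known to depend on feeding.

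Of the 50 genes, 43 were measured, 29 of the large and 14 of the small subunit. A gene was taken at its probe set of highest mean signal, the deposited signals are in arbitrary linear units, and measured means a mean log2 signal at or above the array-wide median, equal to a signal of 41.4. Each of the 43 was above this signal on both arrays, so that none passed through 1 array alone. Most ribosomal protein genes were slightly higher in the olive oil array: 42 of the 43 had the higher signal there, where 48.3% of all 9208 measured genes did. The single member with a lower signal stands against 51.7% of all measured genes. The median log2 difference, olive oil minus fasted, was 0.22, a ratio of 1.16, against -0.01 over all measured genes. For the large subunit it was 0.22, with 29 of 29 genes higher, and for the small subunit 0.21, with 13 of 14 higher. The sizes were mostly small. The log2 differences ranged from -0.24 to 0.73, and 28 of the 43 lay within 0.1 of the median. At least 1.2-fold higher were 13 of the 43 (23.6% of all measured genes) and at least 1.2-fold lower none (26.5%). At least 1.5-fold higher were 2 of the 43 (9.46%), and none was at least 1.5-fold lower (10.1%).

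**Figure D1:**
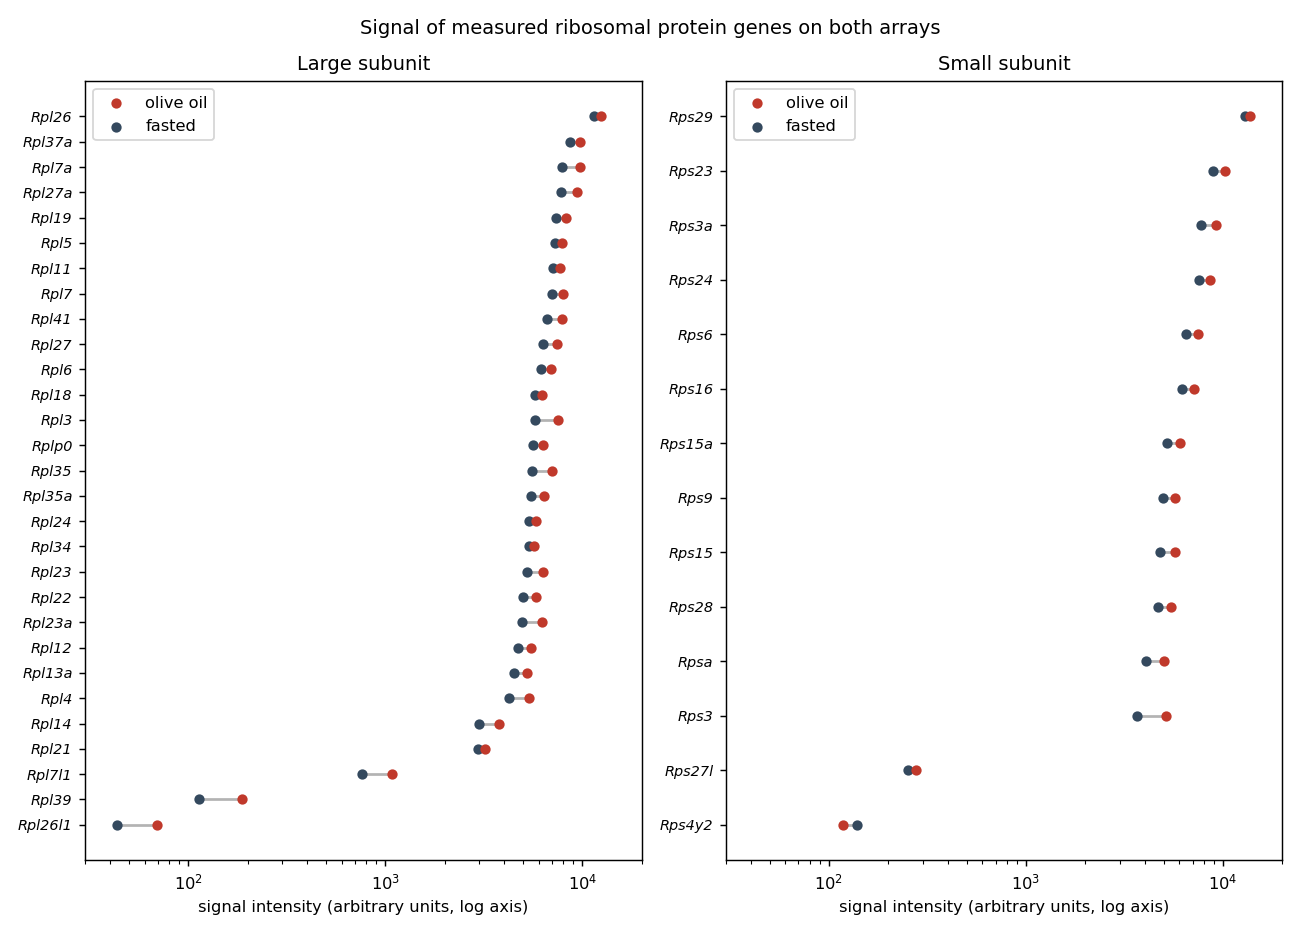
Signal intensity on a log axis (arbitrary units) of the 29 large and 14 small subunit genes measured, with the olive oil array in red and the fasted array in dark blue; each point is 1 array. The olive oil point lies to the right in 42 of 43 genes, the exception being Rps4y2, and 38 genes have signals over 2000 on both arrays.

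The signals were deposited at a common scale, with a mean of 200.1 on both arrays after trimming 2% at each end. A like scale is therefore no separate observation. The median signal was 44.7 in the olive oil and 42.5 in the fasted array. The 18 probe sets for hybridization controls, transcripts foreign to the rat, had a median log2 difference of 0.03 and a range from -0.18 to 0.18. Each such transcript is meant to be added in the same amount to both arrays. The 24 probe sets for poly-A controls, added to the RNA before labelling, had a median of -0.22. Of these 24, 21 were lower in the olive oil array. The ratio of 3' to 5' signal, a measure of RNA integrity, was 3.20 in the olive oil and 2.63 in the fasted array for beta-actin, and 1.34 and 1.28 for GAPDH in the same order. The part of labelling and RNA integrity in the differences was not tested. For the 2290 genes with several measured probe sets, the pooled standard deviation between the probe sets of a gene was 0.35 in log2 difference, and for the 251 such genes among the brightest 10% of probe sets it was 0.22. The first is above the difference of most single ribosomal protein genes, and the second is close to their median.

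Most of these genes formed a narrow band in the plot of difference against signal. The 38 genes with a signal over 2000 on both arrays, a limit chosen after the values were seen, had signals from 3200 to 13723 in the olive oil array (median 6625) and from 2943 to 12912 in the fasted array (median 5652). All 38 were higher in the olive oil array, between 1.06-fold and 1.40-fold, where 48.1% of all 740 genes over this signal were higher. Their log2 differences had a standard deviation of 0.09 over genes and an interquartile range of 0.10. The limit leaves out 5 measured members, among them Rps4y2 (-0.24) and Rpl39 (0.73). Over all 43 measured members the standard deviation was 0.16. The 702 other genes over this signal were centred on -0.02, with an interquartile range of 0.25 and a standard deviation of 0.30. Of these 702 genes, 174 (24.8%) lay within the range of the ribosomal protein genes, 27 above it and 501 below it. Genes are not independent replicates, and a pair of arrays cannot show how far such a band moves between animals. Within the 38 genes the difference was somewhat smaller at higher signals, with r = -0.36 and rho = -0.34 across genes, which share both arrays and whose probe sets differ in sensitivity.

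**Figure D2:**
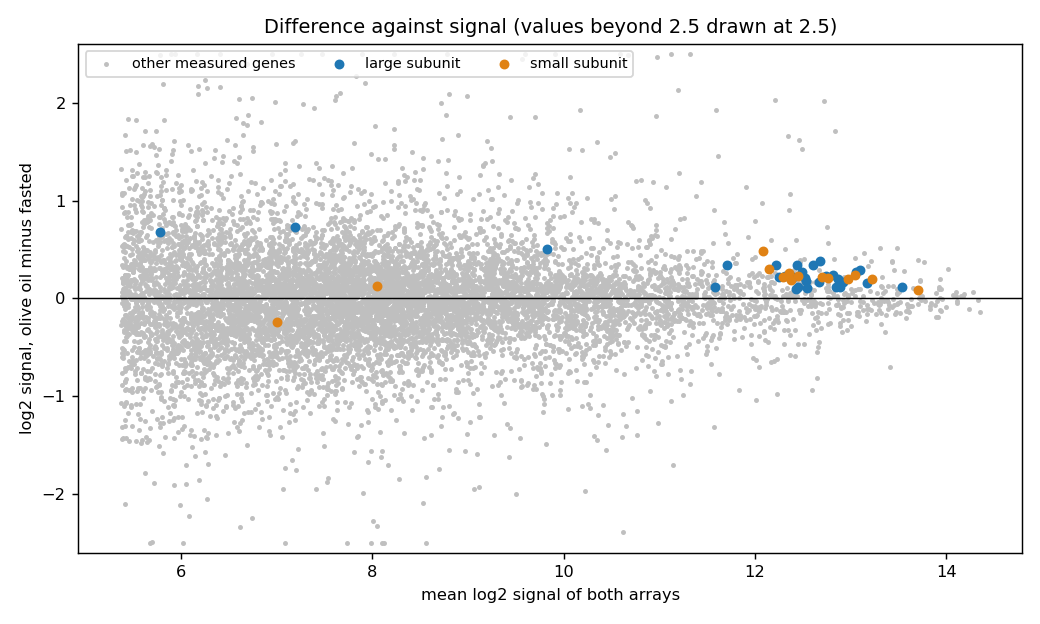
Log2 difference (olive oil minus fasted) against the mean log2 signal of both arrays for the measured genes, with large subunit genes in blue, small subunit genes in orange and other genes in grey; differences beyond 2.5 are drawn at 2.5. The 38 ribosomal protein genes with high signals form a band between 0.09 and 0.48, above the 0 line.

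In the large subunit, both proteins of the 5S RNA particle were near the low end of the band, and those of the factor stalk near its middle. Rplp0, the anchor of the stalk that recruits elongation factors, had a signal of 6295 in the olive oil and 5579 in the fasted array (log2 difference 0.17). Rpl12, at the base of the stalk, had 5493 and 4690 in the same order (0.23). Rpl5 had 7869 in the olive oil and 7273 in the fasted array (0.11), and Rpl11 had 7668 and 7050 (0.12). These 2 proteins carry 5S rRNA into the ribosome and, outside it, bind the p53 regulator Mdm2. Both differences are smaller than the scatter between probe sets of a gene. Rpl3, whose protein reaches the peptidyl transferase centre, was farther up, with 7487 in the olive oil and 5726 in the fasted array (0.39). A second, dimmer probe set of Rpl3 had 225.0 and 244.9, a difference of -0.12, and its suffix marks possible binding to other transcripts.

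Genes for proteins along the peptide tunnel and around its exit had differences from 0.12 to 0.73. Of 11 named for this place, 7 were measured, with a median log2 difference of 0.34. All 7 were higher, against 48.3% of all measured genes. At least 1.2-fold higher were 4 of the 7 (57.1%, against 23.6% of all measured genes). Rpl39, a very small protein that lines the end of the tunnel, had the largest difference of the 43 genes, at 188.3 in the olive oil and 113.9 in the fasted array (0.73, 1.65-fold), on a dim probe set. Rpl23a, the docking site of targeting factors at the exit, had 6268 and 4932 (0.35) in the olive oil and fasted arrays. Its neighbour at the exit, Rpl35, had 7044 in the olive oil and 5543 in the fasted array (0.35), and Rpl4, which reaches into the tunnel wall, 5357 and 4233 (0.34). Lower in the band were Rpl22 at 5817 in the olive oil and 4988 in the fasted array (0.22) and Rpl19 at 8226 and 7319 (0.17). Rpl26, with 12373 in the olive oil and 11424 in the fasted array (0.12), was close to the lowest of the subunit.

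The other 15 measured large subunit genes had log2 differences from 0.10 to 0.34 with a median of 0.21. At least 1.2-fold higher were 4 of the 15 (26.7%), close to the 23.6% of all measured genes. All 15 had signals over 2000 on both arrays, where 10.8% of the 702 other genes were at least 1.2-fold higher. The highest were Rpl14 at 3767 in the olive oil and 2975 in the fasted array (0.34) and Rpl7a at 9712 and 7919 (0.29). Rpl23 and Rpl27a followed at 0.27 each. Between these and the lowest stood Rpl41 at 0.24, which encodes one of the shortest proteins of the cell, Rpl27 at 0.23, Rpl13a at 0.22, Rpl35a at 0.21, Rpl7 at 0.19, Rpl6 at 0.17 and Rpl37a at 0.16. The lowest were Rpl34 at 5700 in the olive oil and 5336 in the fasted array (0.10), Rpl18 at 6205 and 5747 (0.11), Rpl24 at 5809 and 5350 (0.12) and Rpl21 at 3200 and 2943 (0.12). The order among neighbours carries no weight, since they differ by much less than probe sets of 1 gene do.

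In the small subunit, Rps3 had the largest difference, on a single probe set. It was above the next gene, Rpsa, by less than the scatter between probe sets of a gene. Rps3, which lines the entry of the mRNA channel, had 5119 in the olive oil and 3669 in the fasted array (0.48, 1.40-fold). Rpsa, which takes part in the assembly of the platform side and was first known as a laminin receptor, had 5009 and 4075 in the same order (0.30). Its 3 probe sets had differences of 0.30, 0.39 and 0.03. Rps3a, also of the platform side, had 9155 in the olive oil and 7762 in the fasted array (0.24), and Rps28, at the mRNA exit, 5432 and 4659 (0.22). In the head, Rps15 had 5721 in the olive oil and 4789 in the fasted array (0.26), and Rps16 had 7150 and 6154 (0.22). Rps29, also in the head, had 13723 in the olive oil and 12912 in the fasted array and the smallest positive difference (0.09).

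The 5 measured genes of the body lay close together, with log2 differences from 0.19 to 0.23. Rps6, the ribosomal protein phosphorylated by S6 kinase after insulin and amino acid signals, had 7459 in the olive oil and 6479 in the fasted array (0.20). Rps23, at the decoding centre, had 10258 and 8930 (0.20), and Rps24 had 8610 and 7505 (0.20) in the same order. Rps9 had 5669 in the olive oil and 4973 in the fasted array (0.19), and Rps15a 6066 and 5188 (0.23). A dim second probe set of Rps24, at 75.6 and 47.8, had a difference of 0.66. Over the 5 genes with several measured probe sets the pooled standard deviation was 0.23. Of these, Rpl7 (0.19 and 0.27), Rpl7l1 (0.50 and 0.38), Rps24 and Rpsa had all their measured probe sets higher in the olive oil array, and Rpl3 did not.

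**Figure D3:**
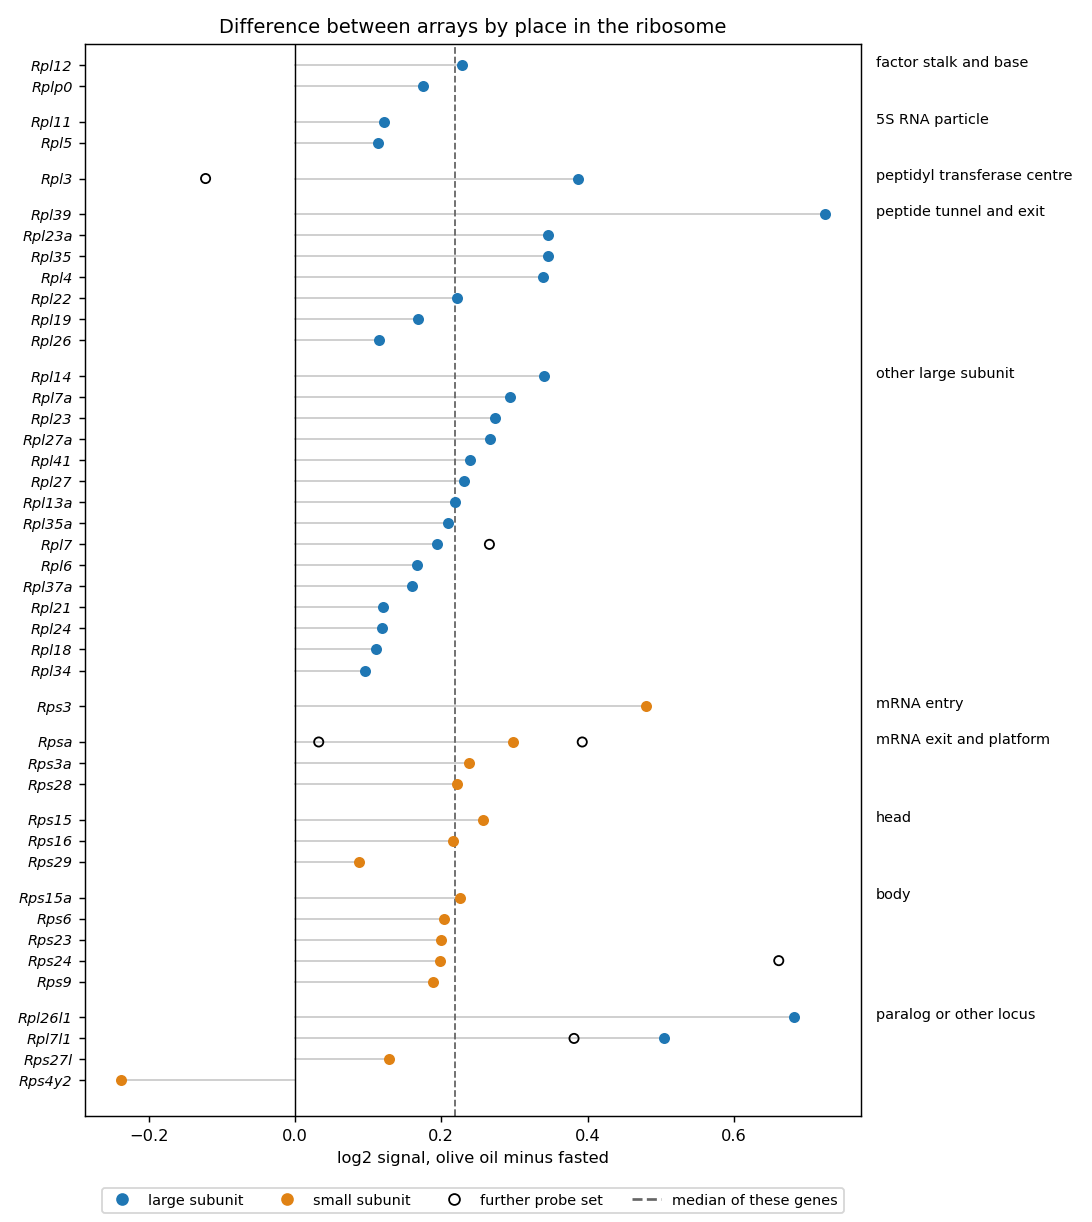
Log2 difference (olive oil minus fasted) of each measured gene, grouped by the place of its protein in the ribosome, with large subunit genes in blue and small subunit genes in orange; open circles are further measured probe sets of a gene, and the dashed line is the median, 0.22. The 5 genes of the small subunit's body lie between 0.19 and 0.23, Rpl39 and Rpl26l1 lie farthest to the right, and Rps4y2 is the only filled point left of 0.

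Members that are relatives of a ribosomal protein gene, and not part of the standard set went both ways. Of 8 such loci 4 were measured. Rpl26l1 had 69.5 in the olive oil and 43.3 in the fasted array (0.68, 1.61-fold), while its close relative Rpl26 differed by 0.12. Rpl7l1 had 1084 and 763.8 in the same order (0.50), while Rpl7 differed by 0.19. Rps27l, a relative of Rps27 that responds to p53 in human cells, had 275.8 in the olive oil and 252.3 in the fasted array (0.13). Rps4y2, of the S4 family, had 117.9 in the olive oil and 139.1 in the fasted array (-0.24, 1.18-fold lower), and was the only measured member with a lower signal. Probe sets of such relatives can also bind the mRNA of the main gene, and the size of this share was not tested.

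The 7 genes not measured were Rpl28, Rpl30, Rps13, Rpl3l, Rpl39l1, Rpl37-ps2 and Rps4x-ps1. Rpl39l1 had 40.8 in the olive oil and 15.5 in the fasted array, and Rps13 had 20.2 and 28.4. The other 5 had signals of at most 25 on both arrays. Rpl28, Rpl30 and Rps13 are also listed on probe sets with several genes, which were not used for them. Of 77 standard ribosomal protein symbols, 42 had a probe set listed with 1 gene and 35 had none, so that the counts here describe part of the ribosome.

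The mRNA starts of the members are shown because the TOP tract is the feature that ribosomal protein genes are known to share and the naming rule did not use. RefSeq promoter sequences of the GRCr8 assembly were found for 43 of the 50 genes, 41 by gene ID and 2 by symbol. A run of at least 5 C or T bases covered the annotated start in 20 of these 43 (46.5%) and in 12% of all 33469 promoters of the table, and a run of at least 10 in 13 (30.2%) and 2.49%. Annotated starts can be off by some bases. Within 15 bases of the start, a run of at least 10 was found for 23 of the 43 (53.5%) and for 8.55% of all. A run can begin before the annotated start, as in Rpl34 and Rpl35, and its bases there lie outside the annotated mRNA. A run's length is therefore not the length of a TOP tract. The 6 longest runs are printed from 30 bases before the start to the 30th base from it on, 5' to 3', with capitals for the run.
Rps23 (chr2:23814487-23814546, plus strand): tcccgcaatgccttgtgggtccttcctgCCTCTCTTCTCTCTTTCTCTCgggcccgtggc
Rpl27a (chr1:172974543-172974602, plus strand): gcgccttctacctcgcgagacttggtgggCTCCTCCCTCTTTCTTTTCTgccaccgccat
Rpl34 (chr2:221962254-221962313, minus strand): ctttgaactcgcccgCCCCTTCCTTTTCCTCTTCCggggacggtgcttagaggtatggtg
Rpl35 (chr3:43165892-43165951, minus strand): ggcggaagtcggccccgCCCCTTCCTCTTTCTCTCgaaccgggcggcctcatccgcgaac
Rps24 (chr16:96487-96546, plus strand): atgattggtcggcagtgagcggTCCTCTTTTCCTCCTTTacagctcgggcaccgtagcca
Rpl22 (chr5:168117931-168117990, plus strand): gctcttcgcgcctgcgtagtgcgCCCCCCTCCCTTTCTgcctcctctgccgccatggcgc

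The same stretch is printed for the 6 members at the ends of the differences, the 5 highest and Rps4y2. Rpl39, Rpl3 and Rps4y2 have a short run over the start, Rps3 a single C, and the relatives Rpl26l1 and Rpl7l1 none.
Rpl39 (chrX:121195867-121195926, minus strand): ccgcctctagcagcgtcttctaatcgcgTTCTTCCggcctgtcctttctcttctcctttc
Rpl26l1 (chr10:17028999-17029058, minus strand): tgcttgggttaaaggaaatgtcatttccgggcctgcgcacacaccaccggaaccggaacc
Rpl7l1 (chr9:21695688-21695747, plus strand): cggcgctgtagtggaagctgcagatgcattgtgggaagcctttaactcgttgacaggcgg
Rps3 (chr1:163195747-163195806, minus strand): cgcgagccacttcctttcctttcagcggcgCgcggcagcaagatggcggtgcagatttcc
Rpl3 (chr7:113507961-113508020, minus strand): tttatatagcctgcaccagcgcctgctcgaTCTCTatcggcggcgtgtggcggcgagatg
Rps4y2 (chr4:183000883-183000942, plus strand): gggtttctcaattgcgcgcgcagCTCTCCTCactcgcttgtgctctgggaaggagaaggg

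Genes with and without such a run had alike medians. The split rests on annotated starts, so genes with a tract a few bases from the start, such as Rps3, count as without one. It therefore cannot show whether the TOP tract goes with the difference. The 19 measured genes with a run of at least 5 had a median log2 difference of 0.22 (range -0.24 to 0.73), and the 20 with a shorter run or none had one of 0.22 (range 0.11 to 0.68). Of letters searched on both strands of the 300 bases, chosen after the sequences had been seen, CTTCCG was present for 20 of 43 members (46.5%) and 16.6% of all promoters. CTTTCC was present for 19 (44.2%) against 26.4%, and CCGGAAG, which overlaps CTTCCG on the other strand, for 10 (23.3%) against 8.75%. AAGATGGC, part of the motif of the factor YY1, was present for 4 (9.3%) against 3.17%. The TATA box letters TATAAA were present for 6 (14%) against 14.2%. A match is a description of the sequence, not a bound site.

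Other genes known for a TOP mRNA were also mostly higher, by less. Of 17 measured genes of this list, which holds elongation and initiation factors and some other genes, 15 were higher (88.2%, against 48.3% of all measured genes), with a median log2 difference of 0.17. At least 1.2-fold higher were 4 of the 17 (23.5%), close to the 23.6% of all measured genes. Rack1, a protein of the small subunit outside the naming rule, had 4397 in the olive oil and 3780 in the fasted array (0.22), which lies within the band. Eef1a1, the factor that brings tRNAs to the ribosome, had 10085 and 10250 (-0.02). The largest differences were those of Nap1l1 (0.46), Eef1d (0.42), Gas5 (0.32) and Vim (0.31).

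Genes that build the ribosome differed by more than its proteins, and those of the mitochondrial ribosome by less. Of 84 measured biogenesis factors, 78 were higher (92.9%, against 48.3% of all measured genes) and 64 at least 1.2-fold higher (76.2%, against 23.6%). At least 1.5-fold higher were 35 (against 9.46% of all measured genes), and none was lower by 1.2-fold or more (against 26.5%). The median was 0.55. Nop58 and Nop56, core proteins of the particles that methylate rRNA, had the largest differences, at 1022 in the olive oil and 336.4 in the fasted array for Nop58 (3.04-fold) and 993.1 and 374.7 for Nop56 (2.65-fold). They were followed by Nol9 at 2.48-fold and Tsr1 at 2.42-fold. Of 73 measured mitochondrial ribosomal protein genes, 43 were higher (58.9%) and 13 at least 1.2-fold higher (17.8%, below the share of all measured genes), with a median of 0.03. Their largest differences, Mrps31 at 2.89-fold, Mrpl47 at 2.71-fold, Mrps2 at 1.82-fold and Mrpl14 at 1.46-fold, were above those of nearly all cytosolic members, while the list was centred near 0. No test of the difference between these lists was possible with 1 array per group. The lists also differ in signal. Summed over genes, the olive oil array had 37291 for the 84 biogenesis factors and 59539 for the 73 mitochondrial genes. For the 43 cytosolic members the sum was 272517. The 5 cytosolic members with a signal under 2000 had a median of 0.50, with a range from -0.24 to 0.73. The part of signal level in the differences between lists was not tested.

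**Figure D4:**
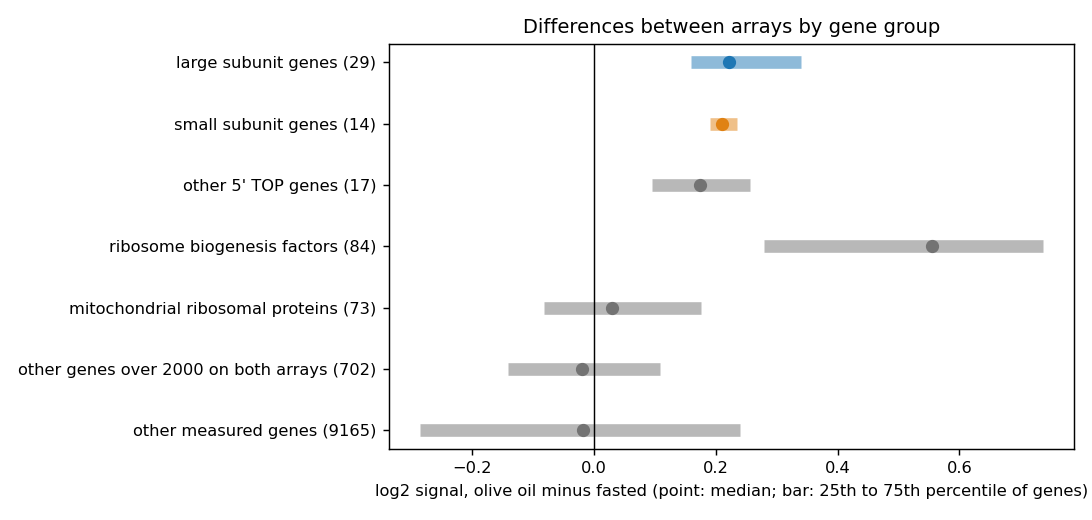
Median (point) and 25th to 75th percentile over genes (bar) of the log2 difference, olive oil minus fasted, with the number of measured genes in brackets. The large and small subunit lie at 0.22 and 0.21, biogenesis factors at 0.55, mitochondrial ribosomal proteins at 0.03 and other genes close to 0.

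Markers of liver cell types were read beside these results, since in whole liver more cells of a type and more RNA per cell cannot be told apart. Of the 7 hepatocyte markers, all measured, 3 were higher and 4 lower, with summed signals of 93217 in the olive oil and 92605 in the fasted array, so that the labelled tissue had its defining genes. Of 7 macrophage markers 5 were higher (sums 5084 and 4460 in the same order), of 4 endothelial markers 2 (4299 and 3855) and of 6 stellate cell markers 3 (2286 and 2269). Of 2 erythroid markers none was higher (sums 9032 in the olive oil and 9333 in the fasted array), and neither was the single measured cholangiocyte marker, Epcam, or the single measured lymphocyte marker, Ptprc (108.3 and 158.6). The neutrophil markers S100a9, at 253.1 in the olive oil and 62.9 in the fasted array, and S100a8, at 75.7 and 32.0, were both higher, while Mpo and Elane are not represented here. No represented marker was at a signal of 0. The part of other cell types in the ribosomal protein differences was not tested.

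Of the choices tried, another scaling moved the subunit medians most, while the choice of probe set moved single genes such as Rps24 and Rpl3 most. Centring each array on its median gave the large subunit a median of 0.15 and the small subunit one of 0.14. All measured genes then had one of -0.09. Centring shifts every gene by the same amount, so the distance to the other genes could not change. With quantile normalization the subunit medians were 0.17 and 0.16, and that of all measured genes was -0.02. The count of higher members was 42 of 43 with median centring and loess, and 41 of 43 with quantile normalization, where Rpl34 was at 0.

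**Figure D5:**
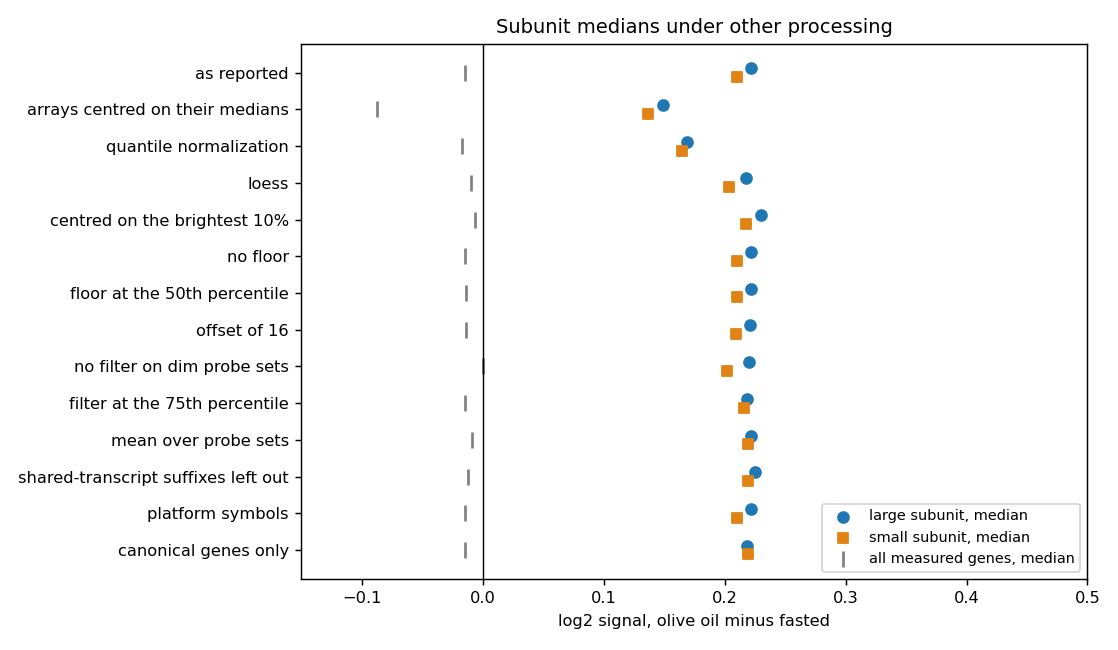
Median log2 difference (olive oil minus fasted) of large subunit genes (circles), small subunit genes (squares) and all measured genes (bars) as reported and under 13 other settings. Both subunits stay between 0.14 and 0.23 in each setting, and all measured genes between -0.09 and 0.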

How the data were processed

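The authors deposited a linear signal intensity for each probe set of each array. Affymetrix Expression Console was the software per the submitters' processing notes (algorithm and version: not given in the sources used here). Trimmed by 2% at each end, the mean signal was 200.1 on both arrays. There was no detection call, and 1 array per group limits the precision.

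After removal of 57 control probe sets, the other 31042 signals per array were raised to at least the 25th percentile of all values, 12.8, and log2 was taken with no further normalization. Platform symbols, which can be old, were updated through RefSeq (GRCr8), which held 20758 of 20826 gene IDs and changed no member's symbol. The members and lists were chosen with earlier results of these data known, which already showed this direction for a subset of the genes, so it is no independent support. Any member could be named under the rule, and from each list the 4 genes of largest difference, with Rack1 and Eef1a1 added after their values were seen. Alternatives were other scalings, floors, filters, probe set choices and member lists. The functions were tested on simulated data. The work ran in Python 3.11.15 with scipy 1.17.1, numpy 2.4.6, matplotlib 3.10.9, statsmodels 0.14.6 (loess) and pandas 2.3.3.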

Additional observations from a re-analysis of the deposited data

How the results depend on the processing

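Over 13 alternative settings, the median log2 difference kept its direction for the large subunit (0.15 to 0.23) and for the small subunit (0.14 to 0.22), and 39 to 45 genes were higher in the olive oil array, the number measured being 39 to 50. The count at least 1.2-fold higher was 9 to 15. It was 9 of 43 with median centring, where 19.4% of all measured genes were that much higher. With quantile normalization it was 11 of 43 (23.6% of all measured genes), and without a filter 15 of 50 (25.4%). These shares of members are not far from those of all genes. The count at least 1.5-fold apart, 2 as reported, was 1 with an offset of 16 in place of the floor, where Rpl26l1 was at 0.53, 0 with a filter at the 75th percentile, which leaves out Rpl39 and Rpl26l1, 1 with the standard genes only, and 3 both without a filter on dim probe sets and without shared-transcript suffixes. Of 555 single values, 551 moved by at most 0.1 and none changed sign. Many of them could not move. Removing the floor, platform symbols, other filters and the standard genes only left each single value they kept unchanged. The 4 that moved more were Rpl26l1 as given, Rpl3 (0.13 with the mean over its probe sets) and Rps24 (0.43 with that mean and 0.66 without shared-transcript suffixes). Leaving out the genes of an earlier, shorter list was not run, since no table used here gives it. No paired analysis was possible because each group has 1 array. Both arrays carry unknown variation between rats, and the signals of dim probe sets are least certain.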

Other observations

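A further 36 probe sets were listed with several genes of which at least 1 has a ribosomal protein symbol, and no gene was named from them. All 36 were measured, with signals from 82.0 to 10955 in the olive oil array and from 44.5 to 11331 in the fasted array. Of these 36, 34 were higher in the olive oil array (against 48.3% of all measured genes) and 2 were lower (against 51.7%). At least 1.2-fold higher were 13 (against 23.6%), and at least 1.5-fold higher 2 (against 9.46%). Their median log2 difference was 0.22, with a range from -0.06 to 0.88. They share arrays and sequence families with the genes above and are no separate sample of livers. The array's control probe set for 5S rRNA had a signal of 198.9 in the olive oil and 183.1 in the fasted array, a log2 difference of 0.12.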
